A study of Rattus norvegicus with 20 samples.

Results

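The miR-379 to miR-410 cluster is a run of miRNA hairpins inside the imprinted Dlk1-Dio3 domain of rat chromosome 6. Its members were taken as every mature miRNA, of either arm, whose family belongs to the 32 families of the cluster. In the 20 libraries 65 mature miRNAs of 31 of these families had reads, out of 617 mature miRNAs with reads in the series. Of these, 58 members had enough reads to be tested, out of 500 tested in the whole series. The other 7 members had between 2 and 158 reads in all 20 libraries together. The 65 members came from 34 precursors. All 65 were found in the RefSeq table of the GRCr8 assembly on chromosome 6, within 36.4 kb (chr6:134543460-134579828), with 64 on the plus strand and miR-299b-3p on the minus strand.

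Small RNA was sequenced from punches of adBNST tissue. This region, the anterodorsal BNST (bed nucleus of the stria terminalis), belongs to the extended amygdala, takes part in stress responses and differs between the sexes. The rats were Sprague-Dawley animals, weaned on postnatal day 21 and killed at 9 weeks of age after a test on the elevated plus maze. The 4 groups of 5 rats were GH males and GH females, which were group housed with littermates of the same sex for 6 weeks, and SI males and SI females, which were socially isolated, that is housed singly, for the same 6 weeks. The comparison asked how isolation during adolescence changed miRNA levels in adulthood, in each sex. The female samples had been picked for high RNA integrity and for a range of estradiol levels, and the labels do not tell which rats shared a litter, so p-values measure the spread between these rats.

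The cluster is transcribed in the brain from the maternal copy of the chromosome as a long precursor RNA that carries one hairpin after another. Each hairpin is cut out by Drosha and then by Dicer, which leaves a duplex with a 5p and a 3p strand, and usually only one of these strands is kept in an Argonaute protein. The kept strand pairs with messenger RNAs mainly through its seed, bases 2 to 8 from its 5′ end, so a shift of the 5′ end or a changed base in the seed gives a miRNA with other targets. Because the hairpins share a transcript, differences among members and between the arms of a hairpin have to be looked at member by member.

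The 13 members below passed the threshold in at least 1 comparison of housing, and are given in genome order with the mature sequence of RefSeq (GRCr8) and the seed in capitals. They are shown because the results turn on them and because their seeds are all different.
miR-411-5p: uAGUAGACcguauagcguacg
miR-380-3p: uAUGUAGUaugguccacaucu
miR-329-5p: aGAGGUUUucugggucucuguuuc
miR-666-3p: gGCUGCAGcgugaucgccugcuc
miR-543-5p: aAGUUGCCcgcguguuuuucg
miR-376b-5p: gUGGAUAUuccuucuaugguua
miR-376b-3p: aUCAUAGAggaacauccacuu
miR-376a-3p: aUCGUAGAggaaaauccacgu
miR-300-3p: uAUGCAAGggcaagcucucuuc
miR-382-5p: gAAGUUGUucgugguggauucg
miR-134-5p: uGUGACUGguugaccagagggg
miR-485-3p: cAUACACGgcucuccucucuuc
miR-410-3p: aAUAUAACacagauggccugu
Over all 65 members there were 60 different seeds.

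Levels of the members spanned several orders of magnitude. The deposited read counts were normalized by the TMM method and are given as CPM, that is reads of the miRNA per 1000000 miRNA reads of a library size rescaled by TMM. CPM are therefore on another scale than shares of the miRNA reads of a library. Mean levels over the 20 rats ran from 1.40 to 6321 CPM with a median of 143.5 CPM, and 13 of the 58 tested members were above 1000 CPM while 10 were under 10 CPM. The 10 members with the highest levels held 76.4% of all reads of the cluster. In order of mean level these were miR-487b-3p at 6321 ± 1868 CPM (SD, n = 20), miR-323-3p at 5687 ± 1005, miR-379-5p at 5438 ± 1415, miR-382-5p at 4967 ± 1172, miR-485-5p at 4518 ± 1389, miR-485-3p at 3303 ± 1720, miR-543-3p at 2384 ± 453, miR-541-5p at 2234 ± 393, miR-369-3p at 2108 ± 813 and miR-409a-3p at 2049 ± 313. Neighbours in this order differed by less than the larger of their SDs. miR-487b-3p ranged from 1786 to 9043 CPM between rats, and its lowest level was in the SI female I16F.

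The number of miRNA reads per library was between 3428930 and 11383055, with a median of 6705043, and the counts of every pair of libraries differed beyond sampling noise. Summed levels of miR-124-3p, miR-128-3p and miR-138-5p, which mark neurons, were between 41790 and 93990 CPM in every library. For the 2 isolated rats with the number I17 the sex in the label goes against that in the name of the file. They were placed by label, as the SI male I17M and the SI female I17F. The median deviation of the tested members from the mean of the GH rats of the same sex, on the log2(CPM + 1) scale, was −0.96 in the SI female I16F, −0.75 in the SI male I17M, −0.59 in the SI male I20M and −0.45 in the SI female I17F. The other 16 rats lay between −0.17 and 0.18.

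In males the cluster took a smaller share of the miRNA reads after isolation, and in females the shares overlapped. The share was 5.42%, 5.90%, 6.27%, 5.13% and 5.85% in the GH males. It was 4.95%, 4.17%, 5.12%, 4.73% and 3.67% in the SI males. All SI males lay below all GH males, although the lowest GH male and the highest SI male were almost level. The mean fell from 5.72% ± 0.44 (SD, n = 5) to 4.53% ± 0.60 (SD, n = 5), a difference of −1.19 percentage points with a standard error of 0.33 (two-sided exact permutation test, p = 0.0079, the smallest that 5 against 5 rats can give, adjusted p = 0.0159 over 4 tests of sums). GH females ranged from 4.67% to 6.08% with a median of 5.23%, and SI females from 4.23% to 5.91% with a median of 5.11%. The female difference was −0.32 percentage points with a standard error of 0.40 (exact permutation test, two-sided, p = 0.421, adjusted p = 0.421). The female effect minus the male effect was 0.86 percentage points (exact permutation of the sex labels within each housing group, two-sided, p = 0.106). A difference between the sexes was thus not shown. That test takes the sexes as equal in both housing groups, so it is not a test of the difference in effects alone. In females the sign of the change depended on the scale, since the summed TMM levels of the tested members were 48864 CPM in GH and 53268 CPM in SI females, against 54625 and 47784 CPM in GH and SI males. In tissue punches, fewer cells that make these miRNAs and less of them per cell cannot be told apart.

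**Figure D1:**
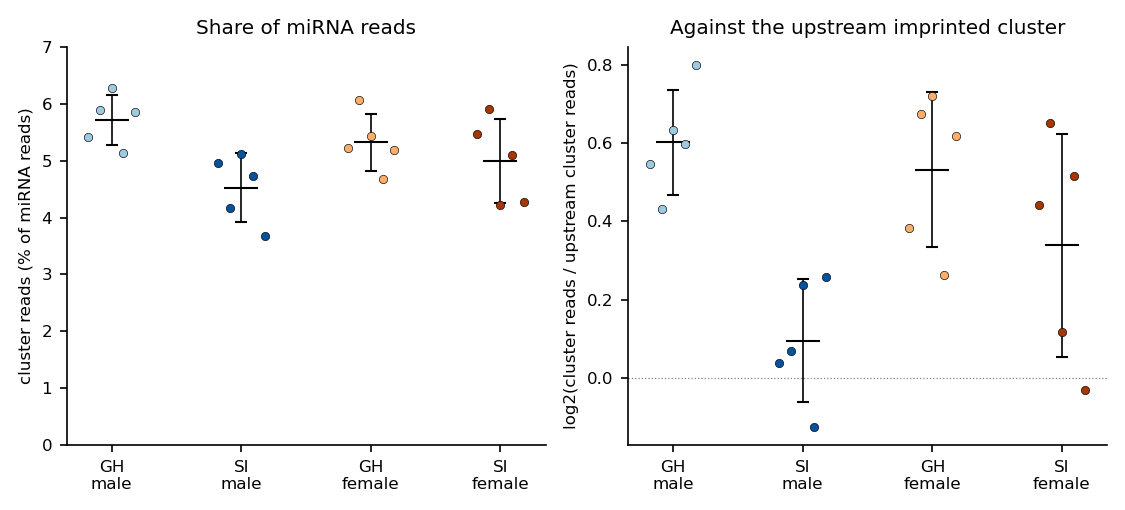
Left, reads of the cluster as percent of all miRNA reads. Right, log2 of the reads of the cluster over the reads of the upstream imprinted cluster. Each point is a rat, horizontal bars are group means and error bars are SD (n = 5 per group). The SI males lie between 3.67% and 5.12%, below the GH males at 5.13% to 6.27%, whereas the female groups overlap.

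The male difference in summed level came mostly from a few abundant members. miR-487b-3p had 7061, 6935, 9043, 8568 and 8383 CPM in GH males and 5007, 5510, 6069, 2982 and 4151 CPM in SI males, and its means differed by −3254 CPM. The male groups did not overlap, but the log2 fold change of −0.75 (standard error 0.27, edgeR adjusted p = 0.0982) did not pass the test. miR-379-5p, the first miRNA of the cluster, had means of 6437 and 4180 CPM in GH and SI males (log2 fold change −0.62, standard error 0.22, edgeR adjusted p = 0.0898). The means of miR-411-5p, which did pass the test in males, differed by −1590 CPM. Against these, miR-485-3p had a mean 1349 CPM higher and miR-382-5p a mean 996 CPM higher in SI than in GH males.

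Averaged over the sexes, isolation was associated with lower levels of 9 members and higher levels of 4 of the 58 tested, at an adjusted p under 0.05 of edgeR's quasi-likelihood test. Among all 500 miRNAs, 17.6% passed the same test, and the share of members that passed was of the same order. The 9 members that fell were miR-411-5p, miR-380-3p, miR-666-3p, miR-543-5p, miR-376b-5p, miR-376b-3p, miR-376a-3p, miR-300-3p and miR-410-3p. The 4 members that rose were miR-329-5p, miR-382-5p, miR-134-5p and miR-485-3p. At an unadjusted p under 0.05 there were 6 members higher and 19 lower, beside 32.2% of all miRNAs tested. The median log2 fold change of the members was −0.27, whereas that of all tested miRNAs was −0.01.

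Direction did not follow the position in the cluster as a whole. Members that fell came from the second precursor, miR-411, to the last, miR-410, and those that rose from miR-329 to miR-485. The 4 members called from the miR-376b, miR-376a and miR-300 precursors are neighbours in the middle of the cluster and all fell. Another stretch, from miR-382 to miR-485, held 3 of the 4 members that rose and none that fell. Where miR-666 and miR-543 lie next to each other, the 3p arm of the former and the 5p arm of the latter fell. All 13 members had the same direction in males and in females, as did 28 of the 45 that did not pass. Selection on the average over the sexes favours equal signs, so this is no separate support.

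**Figure D2:**
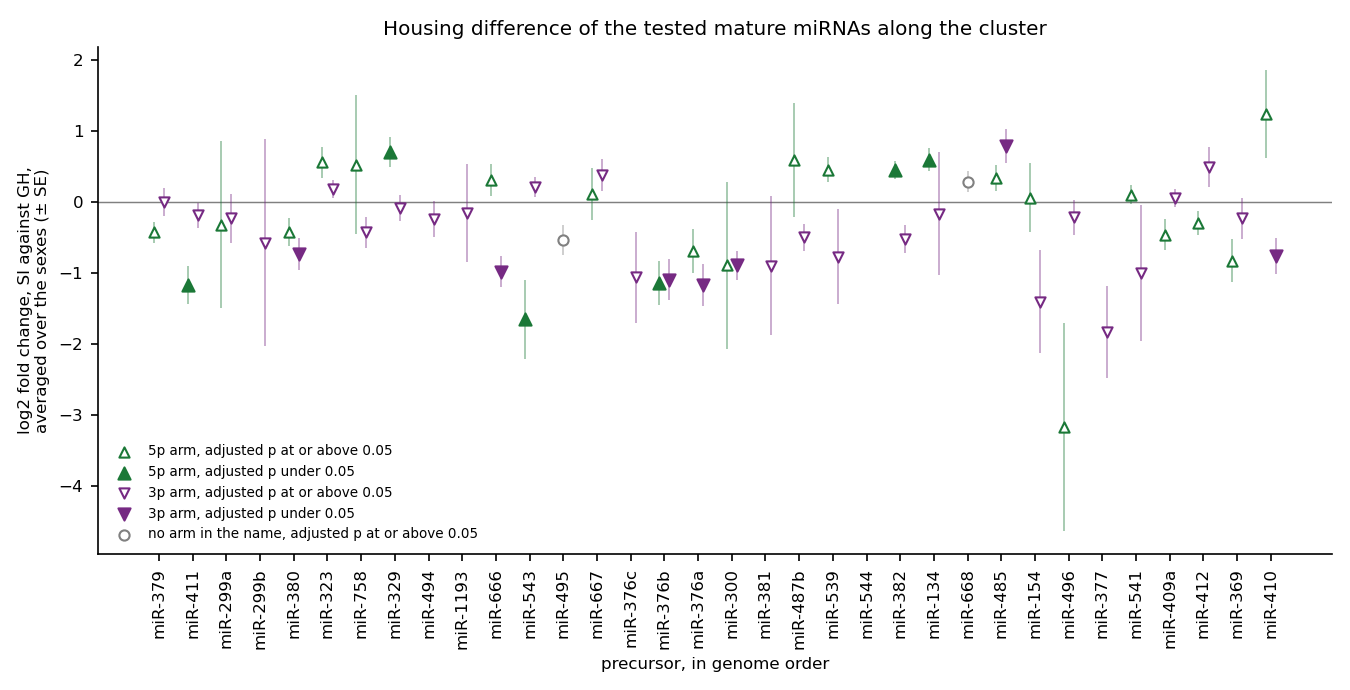
Log2 fold change of SI against GH rats, averaged over the sexes, for the 58 tested members in genome order of their precursors. Upward triangles are 5p arms, downward triangles 3p arms, circles have no arm in the name, filled symbols passed an adjusted p of 0.05, and bars are standard errors. The filled symbols below 0 reach from miR-411 to miR-410, and those above 0 lie at miR-329, miR-382, miR-134 and miR-485.

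miR-411-5p comes from the hairpin next to miR-379, and the mature 5p miRNAs of both hairpins resemble each other. Its level was 3018, 2027, 2704, 2037 and 2543 CPM in GH males and 788, 874, 1376, 615 and 727 CPM in SI males. In GH females it was 3605, 3063, 3234, 1973 and 2313 CPM, and in SI females 2052, 3000, 839, 1684 and 283 CPM. The male groups did not overlap, whereas the SI females I14F and I10F reached the range of the GH females. The log2 fold change was −1.49 in males (standard error 0.39, edgeR adjusted p = 0.0233), −0.85 in females (standard error 0.38, edgeR adjusted p = 0.191) and −1.17 averaged over the sexes (standard error 0.27, edgeR adjusted p = 0.00583). The male call was lost without any one of G16M, G18M, I15M, I19M, I17M or I20M, while its log2 fold change was between −1.72 and −1.41, and with the I17 libraries exchanged (−1.42, edgeR adjusted p = 0.0559).

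miR-666-3p is the 3p strand of a hairpin that lies 8.83 kb after the first one. GH males had 181, 168, 146, 116 and 141 CPM, and SI males had 30.7, 60.5, 73.6, 52.5 and 33.6 CPM. In GH females the levels were 178, 141, 126, 94.5 and 130 CPM, and in SI females 179, 113, 106, 58.7 and 58.8 CPM. Males were separated without overlap, whereas the highest SI female exceeded every GH female. The log2 fold change was −1.59 in males (standard error 0.32, edgeR adjusted p = 0.00699) and −0.38 in females (standard error 0.31, edgeR adjusted p = 0.545). The female minus the male effect was 1.21 (standard error 0.44, unadjusted p = 0.0118, edgeR adjusted p = 0.485), so the sexes were not shown to differ. With both I17 libraries exchanged the male value was −1.31 (edgeR adjusted p = 0.0559).

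miR-300-3p was the third member that passed the test in males. Levels were 964, 765, 1030, 730 and 842 CPM in GH males and 328, 315, 506, 362 and 267 CPM in SI males. GH females had 1061, 1212, 661, 619 and 675 CPM, and SI females 697, 881, 478, 686 and 238 CPM. Every SI male lay under every GH male, and the female groups overlapped. The log2 fold change was −1.29 in males (standard error 0.28, edgeR adjusted p = 0.0105) and −0.50 in females (standard error 0.28, edgeR adjusted p = 0.325). This call held without each of the 10 males in turn.

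Part of the reads assigned to miR-300-3p could also come from the neighbouring hairpin of miR-381. Over the 18 bases of miR-381-3p the mature sequences differ by 1 base, A4G, where the first letter is the base of miR-381-3p, the number its position from the 5′ end and the last letter the base of miR-300-3p. Of 83059 reads, 38.9% matched only the hairpin of miR-300, 44.4% matched both that hairpin and the miR-381 hairpin carrying A4G, 10 reads (0.012%) matched only the latter, and 16.6% matched neither exactly. The RefSeq hairpin of miR-381 ends before the longer reads do, so such reads could match only miR-300 or neither. Reads of miR-300-3p and of miR-381-3p with A4G could therefore not be told apart in any of these groups.

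miR-376a and miR-376b are neighbouring hairpins of one family, whose members are known targets of adenosine deaminases. miR-376b-3p had 327, 457, 484, 480 and 629 CPM in GH males against 140, 236, 250, 192 and 173 CPM in SI males, and 260, 518, 803, 332 and 666 CPM in GH females against 385, 538, 209, 172 and 51.1 CPM in SI females. Its log2 fold change averaged over the sexes was −1.10 (standard error 0.29, edgeR adjusted p = 0.0129), −0.98 from reads without a mismatch (edgeR adjusted p = 0.0781) and −0.60 with GC content corrected for (edgeR adjusted p = 0.0247). The opposite strand, miR-376b-5p, fell as well, by 1.14 on the log2 scale (standard error 0.31, edgeR adjusted p = 0.0142), and by 1.04 without both I17 libraries (edgeR adjusted p = 0.0511) or 0.67 with the GC correction (edgeR adjusted p = 0.0150). For both strands the male groups did not overlap and the female groups did. miR-376a-3p had 46.7 to 82.2 CPM in GH males, 10.2 to 48.2 CPM in SI males, 62.3 to 78.3 CPM in GH females and 16.01 to 69.5 CPM in SI females, and its log2 fold change was −1.17 (standard error 0.30, edgeR adjusted p = 0.0108).

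The remaining members that fell were miR-380-3p, miR-410-3p and miR-543-5p. miR-380-3p had a median of 410 CPM in GH males, 272 CPM in SI males, 392 CPM in GH females and 162 CPM in SI females (log2 fold change −0.73, standard error 0.23, edgeR adjusted p = 0.0293). miR-410-3p, the last member of the cluster, had a median of 395 CPM in GH males, 229 CPM in SI males, 402 CPM in GH females and 268 CPM in SI females (log2 fold change −0.76, standard error 0.25, edgeR adjusted p = 0.0412). Both were without overlap in males only. miR-543-5p was read little, with 10.8 to 40.2 CPM in GH males, 0 to 6.89 CPM in SI males, 5.20 to 21.5 CPM in GH females and 4.002 to 15.8 CPM in SI females (log2 fold change −1.65, standard error 0.55, edgeR adjusted p = 0.0412). It had no read in the SI male I17M. The calls of miR-380-3p and miR-410-3p were lost when GC content was corrected for in each library (log2 fold changes −0.21 and −0.31, edgeR adjusted p = 0.373 and 0.143) and without both I17 libraries (−0.64 and −0.72, edgeR adjusted p = 0.0907 and 0.102). The call of miR-380-3p was also lost without any one of I17M, G16F, G17F or I17F. That of miR-410-3p held only without G16M, I22M, I20M, G15F, G13F, I10F or I16F, and that of miR-543-5p only without G16M, G20M, G21M, I19M, I22M, I17M, G12F, I14F, I10F or I16F. With the I17 libraries exchanged the value of miR-543-5p was −1.57 (edgeR adjusted p = 0.0602).

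Among the 4 members that rose, miR-134-5p is a miRNA of dendrites that limits the size of dendritic spines. It had 785, 1018, 960, 1033 and 1003 CPM in GH males and 1578, 1366, 2004, 1614 and 1088 CPM in SI males. GH females had 952, 1340, 769, 990 and 941 CPM, and SI females had 1635, 1098, 1400, 875 and 2113 CPM. It was the only member with SI males all above GH males in CPM. As a share of the miRNA reads of a library the male groups overlapped. The SI male I20M had 7132 reads of miR-134-5p among 7078030, a smaller share than the 3977 among 3428930 of the GH male G19M. The log2 fold change was 0.67 in males (standard error 0.22, edgeR adjusted p = 0.0871), 0.51 in females (standard error 0.22, edgeR adjusted p = 0.187) and 0.59 averaged over the sexes (standard error 0.16, edgeR adjusted p = 0.0134).

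miR-382-5p, an abundant member, had 4443, 4871, 5022, 4396 and 4168 CPM in GH males and 5979, 5660, 5855, 5425 and 4961 CPM in SI males. In GH females it had 4493, 4264, 2779, 4456 and 3166 CPM, and in SI females 5633, 4204, 5327, 5906 and 8329 CPM. In CPM only 1 SI male fell into the GH range, and 1 SI female did. As a share of the miRNA reads of a library the males overlapped more. The GH male G19M had 19030 reads of miR-382-5p among 3428930, and the SI male I15M had 62824 among 11383055, a smaller share. Averaged over the sexes the log2 fold change was 0.45 (standard error 0.13, edgeR adjusted p = 0.0205).

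miR-485-3p and miR-485-5p come from one hairpin, and miR-485 is known for restraining synaptic proteins such as SV2A. miR-485-3p had 3490, 1735, 2563, 1624 and 2442 CPM in GH males, 3950, 3060, 2897, 5878 and 2813 CPM in SI males, 4197, 2529, 1188, 2926 and 1404 CPM in GH females and 3544, 2973, 4536, 3463 and 8851 CPM in SI females. The groups overlapped in both sexes, and the highest value of each sex was in an SI rat, I17M and I16F. Its log2 fold change averaged over the sexes was 0.79 (standard error 0.24, edgeR adjusted p = 0.0272), which did not pass without both I17 libraries (0.66, edgeR adjusted p = 0.0875) or without any one of G19M, G20M, I17M, G16F or G17F. miR-485-5p showed a log2 fold change of 0.34 (standard error 0.18, edgeR adjusted p = 0.196). miR-329-5p, of a family that has been tied to dendrite growth in neurons, had 91.5 to 142 CPM in GH males, 137 to 283 CPM in SI males, 87.4 to 150 CPM in GH females and 99.0 to 299 CPM in SI females (log2 fold change 0.70, standard error 0.21, edgeR adjusted p = 0.0272). That call was lost without any one of I22M, G16F or G17F.

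**Figure D3:**
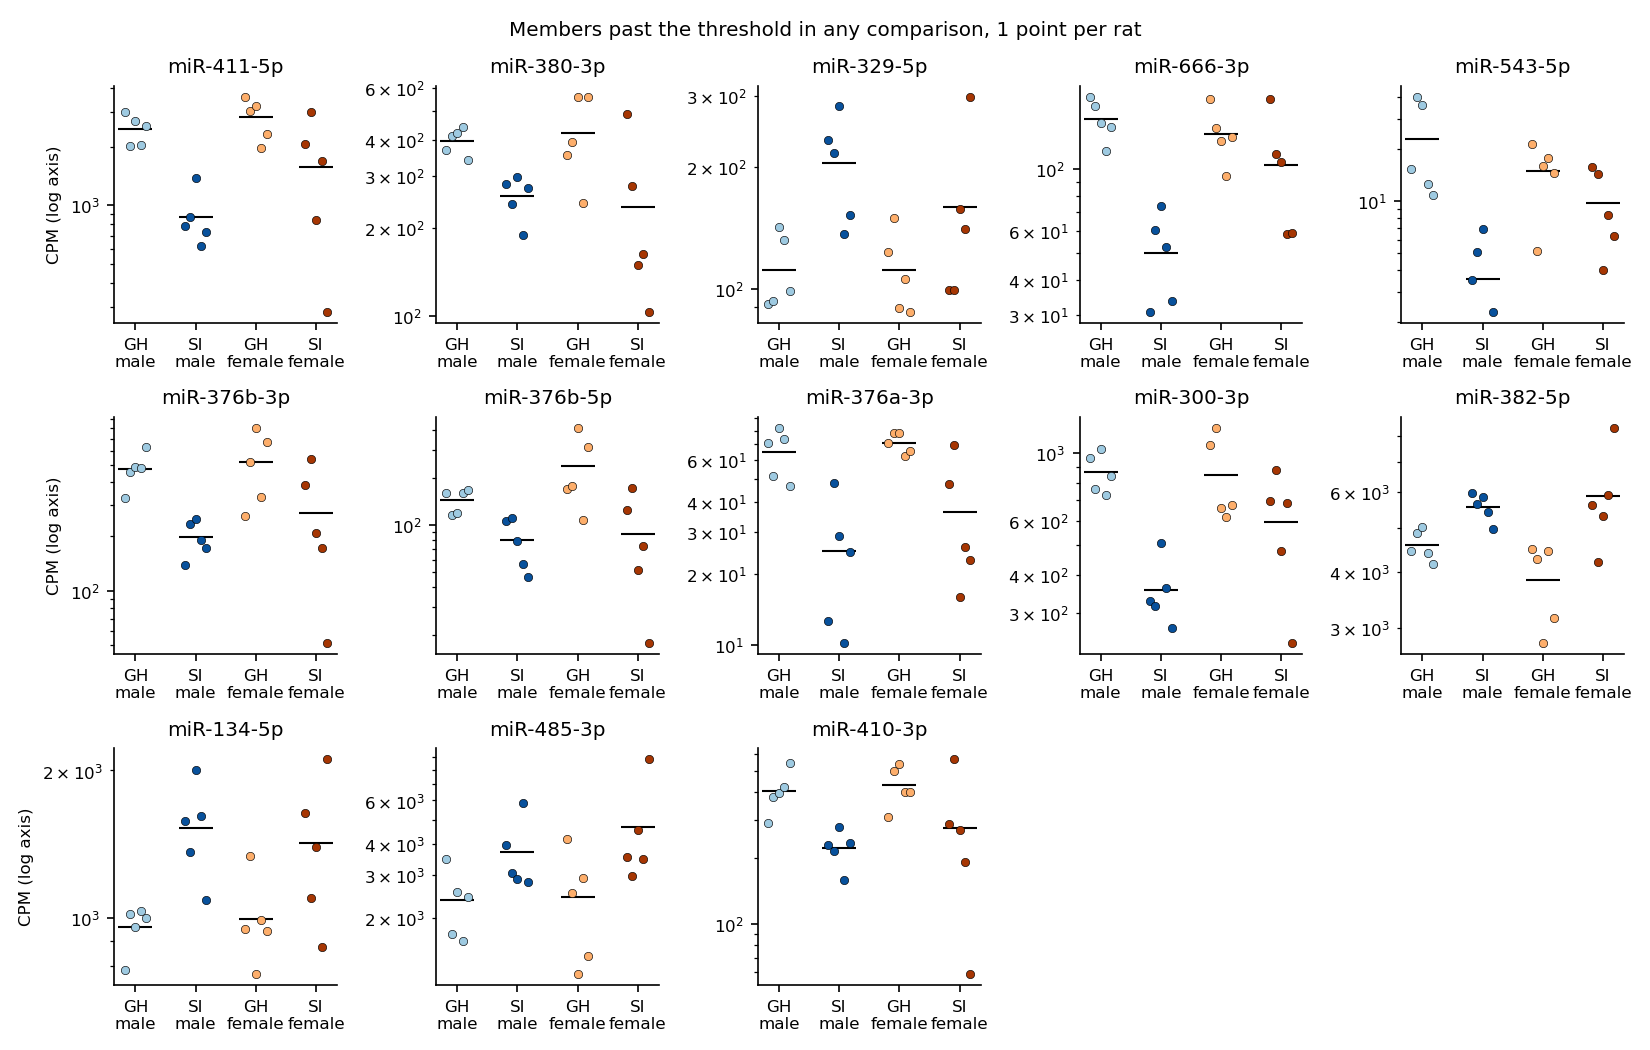
Levels in CPM, on log axes that differ between panels, of the 13 members that passed the threshold, in genome order. Each point is a rat and horizontal bars are group means (n = 5 per group). The SI male I17M had no read of miR-543-5p and is not drawn in that panel. miR-411-5p, miR-666-3p and miR-300-3p separate the male groups, whereas SI females are spread across and beyond the GH range. The male groups are also separate for miR-134-5p, miR-376b-3p, miR-376b-5p, miR-380-3p, miR-410-3p and miR-543-5p.

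Within males alone, 3 members passed, all lower (miR-300-3p, miR-411-5p and miR-666-3p), beside 4% of all miRNAs tested. Another 16 passed an unadjusted p of 0.05 only, so that 3 were higher and 16 lower at that level, beside 23% of all miRNAs. In CPM, SI and GH males did not overlap for 13 members, of which 1 was higher and 12 lower, beside 13.8% of all miRNAs. The lower ones included miR-377-3p, whose level was 14.6 to 29.96 CPM in GH males and 0 to 9.71 CPM in SI males (log2 fold change −1.97, standard error 0.92, edgeR adjusted p = 0.197). The median log2 fold change was −0.39 for the 58 members and −0.01 for all 500 miRNAs, with 22 members above 0 and 36 below. The number called in males depended on the test: DESeq2's Wald test called 3 higher and 8 lower, 22.9% of the 48 members to which it gave an adjusted p, beside 14.4% of all miRNAs. limma voom with sample quality weights called 3 higher and 11 lower (24.1% of members, beside 17.4% of all miRNAs), and edgeR on the 10 males alone 2 higher and 14 lower (28.6% of members, beside 18.5%).

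In females alone no member passed edgeR's test, beside 0.4% of all miRNAs. At an unadjusted p under 0.05 there were 13 members, 6 higher and 7 lower, beside 20.8% of all miRNAs, and DESeq2's Wald test called 3 higher and 2 lower, beside 17.9% of all miRNAs, while limma voom called 0, beside 0.6%. No member separated the female groups, beside 2% of all miRNAs. The median log2 fold change of the members was −0.21, and that of all miRNAs −0.13. Leaving out the SI female I10F gave 9 members called, and leaving out I14F gave 1. The share of all miRNAs called in these fits was not counted, so these counts are not read as particular to the cluster. The median log2 fold change turned to 0.00 without I16F.

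The effect of isolation was not shown to differ between males and females for any member. The interaction of housing and sex was called by edgeR for 0 of 58 members, beside 0.4% of all miRNAs. At an unadjusted p under 0.05 there were 2 members, miR-666-3p and miR-496-5p, the latter with 173 reads in all. Of all 500 miRNAs 11 were positive and 25 negative at that level. DESeq2 and limma voom called 0 members, beside 1.02% and 0.6% of all miRNAs. GH females and GH males also did not differ by edgeR in any member, beside 0% of all miRNAs. Only 1 member, miR-409a-3p, had an unadjusted p under 0.05 (log2 fold change −0.37, unadjusted p = 0.0439, edgeR adjusted p = 0.996). Of all 500 miRNAs 7 were higher and 5 lower at that level. DESeq2 and limma voom called 0 there as well, beside 0.853% and 0% of all miRNAs.

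Both arms could be compared in 25 precursors. The 5p arm had more reads in 11 and the 3p arm in 14, and a single arm held over 90% of the reads in 13. The strongest preference for the 5p arm was in miR-541 with 99.8%, miR-134 with 99.6% and miR-379 with 96.6% of the reads. That for the 3p arm was in miR-487b with 99.9%, miR-300 with 99.7% and miR-543 with 99.5%. In 6 precursors the arm with more reads was not the same in every rat. Averaged over the sexes the fold changes of the arms had opposite signs in 13 of the 25 precursors. Among these, miR-758-5p, miR-487b-5p, miR-134-3p, miR-541-3p and miR-410-5p were under 10 CPM. The share of all precursors with opposite signs was not counted, so this number is not read as a result about the members.

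The ratio of the arms compares strands within 1 library and hairpin, but where an arm has no read its value is set by the added 0.5 and the depth. As log2 of (5p reads + 0.5) over (3p reads + 0.5), it was tested with limma over 158 precursors of the series. Neither sex alone gave a call among the members, beside 0% of all precursors in males and 0% in females. At an unadjusted p under 0.05 there were 7 members in males and 6 in females. The share of all 158 precursors at that level was not counted, so these numbers are not read as a result about the members. Averaged over the sexes, a comparison that was added after the data had been seen, miR-411, miR-666, miR-543 and miR-382 passed, 4 of 25 members beside 10.1% of all precursors.

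In miR-411 the 5p arm lost ground. Its share of the reads of the hairpin lay between 65.3% and 76.2% in GH males and between 50.3% and 60.4% in SI males. In GH females it was between 69.7% and 82.8%, and in SI females between 41.1% and 73.3%. The log2 arm ratio of miR-411 changed by −1.11 (standard error 0.23, limma adjusted p = 0.00849), and the call held without each rat in turn. For miR-411-3p itself the log2 fold change was −0.19 (standard error 0.17, edgeR adjusted p = 0.488), beside −1.17 for miR-411-5p.

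In miR-666 the balance moved the other way. The 5p arm held between 38.4% and 55.3% of the reads in GH males and between 65.6% and 82.1% in SI males, without overlap. In GH females it held between 27.1% and 58.5%, and in SI females between 47.0% and 80.4%. The log2 arm ratio of miR-666 rose by 1.40 (standard error 0.31, limma adjusted p = 0.00963), and this call too held without each rat in turn. For miR-666-5p the log2 fold change was 0.31 (standard error 0.22, edgeR adjusted p = 0.363). In all 5 SI males the 5p arm had more reads than the 3p arm.

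In miR-382 the share of the 5p arm was between 71.0% and 81.8% in GH males and between 83.7% and 89.9% in SI males. It was between 68.6% and 84.5% in GH females and between 75.5% and 94.5% in SI females. The log2 arm ratio of miR-382 rose by 1.03 (standard error 0.29, limma adjusted p = 0.0315), with miR-382-5p up and miR-382-3p at a log2 fold change of −0.52 (standard error 0.20, edgeR adjusted p = 0.0743). The call was lost without any one of G16M, G18M, G21M, I15M, G12F, G16F, G17F or I17F. In miR-543 the log2 arm ratio changed by −2.27 (standard error 0.66, limma adjusted p = 0.0329), with 5p shares of at most 2.19% in any rat, 0 reads of the 5p arm in I17M, a change of −1.71 without that rat and a call that was lost with the I17 libraries exchanged (limma adjusted p = 0.0706) or without any one of G16M, G19M, G18M, I15M, G15F, G16F, G17F, I17F or I12F. Of the other hairpins named by rule, the log2 arm ratio changed by −0.60 in miR-369 (limma adjusted p = 0.0630), −0.45 in miR-485 (limma adjusted p = 0.101) and 0.73 in miR-329 (limma adjusted p = 0.119).

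**Figure D4:**
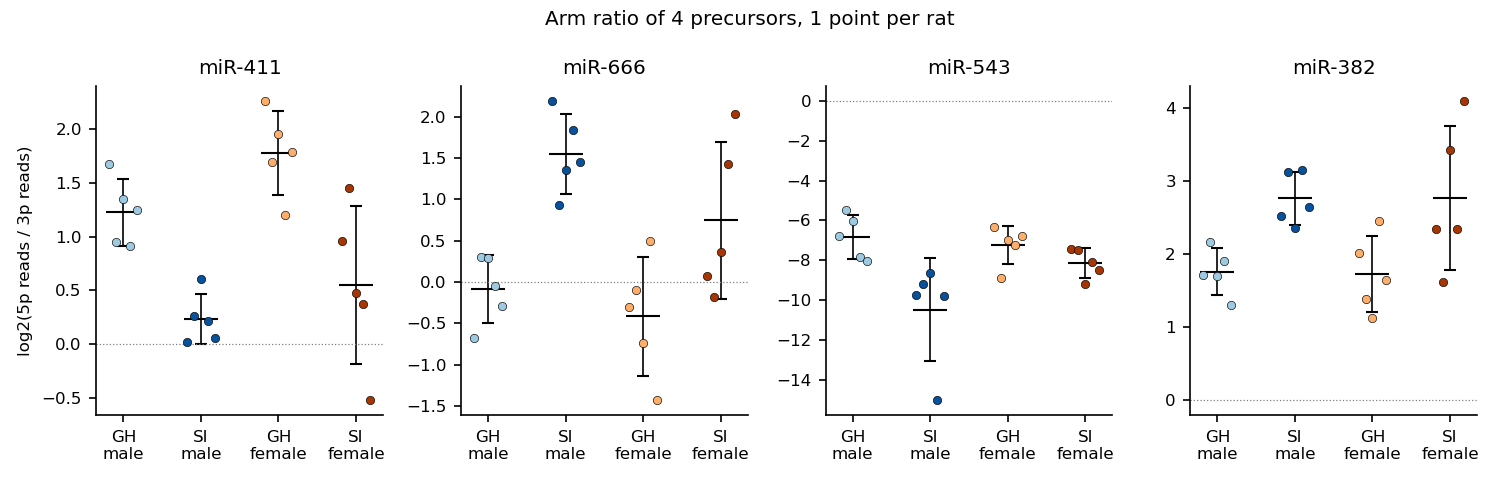
Log2 ratio of 5p to 3p reads of 4 precursors, with 0 as equal numbers. Each point is a rat, horizontal bars are group means and error bars are SD (n = 5 per group). SI rats sit lower for miR-411 and miR-543 and higher for miR-666 and miR-382, and the point at −15.0 in miR-543 is the SI male with no 5p read.

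For many members the reads did not start where the reference sequence does. Among 28 members with at least 20000 reads, 10 had over 10% of their reads at another 5′ end, and for miR-379-3p and miR-409a-3p the commonest end was not that of the reference. Of the miR-409a-3p reads, 53.4% began 1 base upstream, and 98.3% of the miR-379-3p reads began 1 base downstream. miR-411-5p was divided, with 53.7% of its reads at the reference end. The share at other ends was between 31.4% and 51.9% in the rats. The 3 commonest reads of miR-411-5p are given as deposited, with T for U and bases 2 to 8 of each read in capitals, to show how the seed differs between forms of one miRNA.
miR-411-5p, reference start, 32.0% of its reads: tAGTAGACcgtatagcgtacg
miR-411-5p, 1 base longer at the 5′ end, 25.7% of its reads: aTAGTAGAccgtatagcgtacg
miR-411-5p, reference start with A5G, 12.2% of its reads: tAGTGGACcgtatagcgtacg

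The last of these forms carries G where the reference has A, a mismatch that adenosine-to-inosine editing leaves in a sequencing read. A-to-G was the commonest kind of mismatch in the tested members, with 69.6% of all mismatched reads and 2.63% of all reads of the members, while T-to-C, the next, made up 10.2% of the mismatched reads. Positions are counted from the 5′ end of the reference. At A6G of miR-376b-3p, 64.9% of the reads carried G, so that its commonest read differed from the reference in the seed.
miR-376b-3p, A6G, 41.7% of its reads: aTCATGGAggaacatccactt
miR-376b-3p, reference, 26.7% of its reads: aTCATAGAggaacatccactt
The shares in other members were 26.4% at A6G of miR-376c-3p, 26.3% at A5G of miR-411-5p, 5.85% at A5G of miR-379-5p and 67.5% at A13G of miR-377-3p, which lies outside the seed and rests on 1736 reads.

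For miR-411-5p these shares overlapped in all groups. The share of G at A5G of miR-411-5p was 26.1% ± 4.0 in GH males, 28.4% ± 6.7 in SI males, 24.4% ± 4.3 in GH females and 26.5% ± 5.4 in SI females (SD, n = 5 each). At A5G of miR-379-5p it was 5.18% ± 0.26 in GH males, 6.20% ± 0.64 in SI males, 5.72% ± 0.83 in GH females and 6.59% ± 1.22 in SI females, and in males every SI rat (5.61% to 7.10%) lay above every GH rat (4.73% to 5.40%). The share at A6G of miR-376b-3p was 68.8% ± 5.3, 63.8% ± 15.3, 64.9% ± 2.0 and 66.0% ± 10.5 in the same order, and the widest spread was in SI males, in which I17M had 90.01% and the other 4 had 51.8% to 63.4%. At A13G of miR-377-3p the share was between 78.9% and 100% in GH males, and between 0% and 91.4% in the 4 SI males with reads of it. No test was made of these shares, and shares of members with few reads carry the larger counting error.

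**Figure D5:**
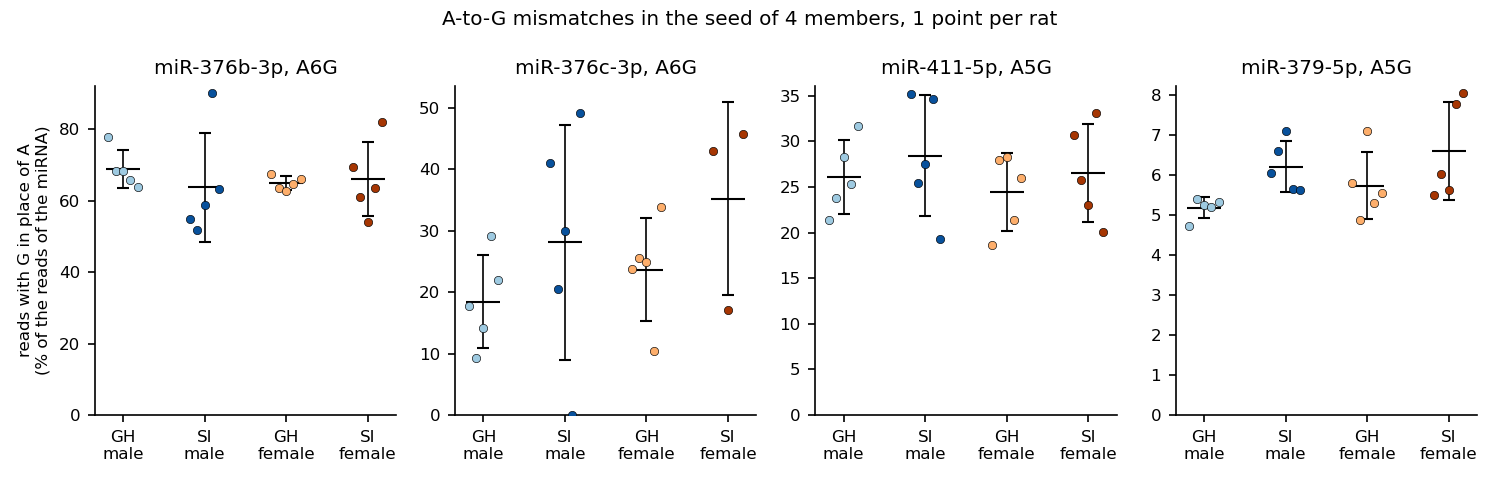
Percent of the reads of 4 members with G in place of the reference A at the position named above each panel. Each point is a rat, horizontal bars are group means and error bars are SD. Panels hold 5 rats per group, but 3 SI females for miR-376c-3p, because 2 had no read of it. The groups overlap for miR-376b-3p and miR-411-5p, and for miR-379-5p the SI males lie above the GH males.

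An upstream group of hairpins in the same imprinted domain, with miR-127, miR-136, miR-370, miR-434 and others, served as a neighbour for comparison. In males the log2 ratio of the reads of the miR-379 to miR-410 cluster over those of the upstream cluster was 0.43 to 0.80 in GH rats and −0.12 to 0.26 in SI rats, without overlap. Its mean fell by 0.51 (standard error 0.09, two-sided exact permutation test, p = 0.0079, the smallest possible here, adjusted p = 0.0159 over 4 tests). In females it ranged from 0.26 to 0.72 in GH rats and from −0.03 to 0.65 in SI rats, and fell by 0.19 (standard error 0.16, exact permutation test, two-sided, p = 0.246, adjusted p = 0.328). The female effect minus the male effect was 0.31 (exact permutation of the sex labels within each housing group, two-sided, p = 0.101). The sums are carried by few miRNAs: miR-434-3p of the upstream cluster went from a mean of 11920 CPM in GH males to 19310 CPM in SI males, and miR-127-3p from 6747 to 9807 CPM. With the median log2 level of the members in place of the sum, the male difference was −0.01 (exact permutation test, two-sided, p = 0.937), so a change of the typical member relative to the upstream cluster was not shown. Of the 22 upstream miRNAs tested, 2 were higher and 7 lower averaged over the sexes, beside 17.6% of all miRNAs. In the miR-379 to miR-410 cluster these were 4 higher and 9 lower of 58, so lower levels were not particular to that cluster.

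Some markers of vessel cells, and 1 of red blood cells, moved with housing in the same libraries. miR-143-3p, which marks mural cells, fell by 0.99 on the log2 scale (edgeR adjusted p = 0.00594) and miR-126a-3p of endothelium −1.11 (edgeR adjusted p = 0.0108), averaged over the sexes, whereas miR-486 of red blood cells had 0.92 (edgeR adjusted p = 0.0039). The summed level of the 2 mural markers was 9402 to 14300 CPM in GH males, 4050 to 6530 CPM in SI males, 9930 to 19740 CPM in GH females and 2050 to 13770 CPM in SI females. The lowest, 2050 CPM, was in I16F, the rat with the lowest median deviation of the members (−0.96). By share of miRNA reads the lowest rat was I20M, and I16F had the highest levels of miR-134-5p, miR-382-5p and miR-485-3p of all rats. Of the 2 mural and 2 endothelial markers, 1 each passed the test, both lower. miR-145-5p had −0.63 (edgeR adjusted p = 0.113) and miR-126a-5p −0.63 (edgeR adjusted p = 0.398). The 4 markers of red blood cells summed to 795 to 1456 CPM in GH rats and 1422 to 4036 CPM in SI rats, of which 1 passed. miR-451-5p had 0.09, miR-144-3p 1.03 and miR-144-5p 1.31 averaged over the sexes (edgeR adjusted p = 0.966, 0.641 and 0.506). By sex, miR-451-5p had 0.72 in males and −0.54 in females, and miR-144-3p 4.20 and −2.14. Of 3 oligodendrocyte markers miR-338-3p fell (log2 fold change −1.74, edgeR adjusted p = 0.0162), whereas miR-219a-5p had −2.07 (edgeR adjusted p = 0.0891) and miR-219a-2-3p 0.30 (edgeR adjusted p = 0.305). Their sum was 2527 to 4990 CPM in GH males, 3274 to 6379 CPM in SI males, 2783 to 4856 CPM in GH females and 2558 to 6828 CPM in SI females, so it did not follow miR-338-3p. None of the 3 neuronal, 4 microglial or 3 choroid plexus and epithelial markers tested passed edgeR's test. The last 3 still summed to 18210 CPM in I20M and to 843 to 5238 CPM in the other rats. The lists held 4 neuronal and 6 choroid plexus and epithelial markers, and the rest of these were not tested. The part of these cells in the differences of the members was not tested.

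Base composition moved with the fold changes as well. The 4 members that rose had a GC content of 45.8% to 59.1% with a median of 52.3%, and the 9 that fell one of 36.4% to 69.6% with a median of 42.9%. Across the 58 members, the rank correlation of GC content and log2 fold change averaged over the sexes was 0.50, and across 499 miRNAs it was 0.24; both are across miRNAs, which share libraries and are not replicates. With GC content corrected for in each library, 7 members were higher and 7 lower in place of 4 and 9, beside 22.6% of all miRNAs, and 11 of the 13 calls were kept. Among these, the log2 fold change went from −1.10 to −0.60 for miR-376b-3p (edgeR adjusted p = 0.0247), from −1.14 to −0.67 for miR-376b-5p (edgeR adjusted p = 0.0150) and from 0.70 to 1.12 for miR-329-5p (edgeR adjusted p = 0.00619). The correction moved the median of all miRNAs from −0.01 to 0.20 and that of the members from −0.27 to −0.09. miR-666-3p, which fell, had a GC content of 69.6%, and miR-666-5p, which did not, 70.0%. The part of GC content in the other differences was not tested beyond this correction.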

How the data were processed

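Small RNA of the adBNST was measured in 20 rats. Adapters were cut off by the authors with cutadapt, and reads were assigned with seqbuster to rat sequences of miRBase v21. The deposited counts are whole reads per distinct sequence, not normalized, with no sequence read fewer than 2 times. Versions of these tools are not given in the sources used here. Counts were summed per mature miRNA, and a read of several miRNAs was counted for each.

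miRNAs with at least 10 counts in at least 5 libraries were tested with edgeR 4.0.16 (TMM, quasi-likelihood F test, 1 model of 4 groups, Benjamini-Hochberg adjustment over 500 miRNAs, threshold 0.05) in R 4.3.3. Standard errors are the size of the log2 fold change over the square root of its F. Arm ratios were fitted with limma 3.58.1. Sums were compared by exact permutation tests in scipy 1.17.1. The scripts were tested on simulated data. Depth was 3428930 to 11383055 miRNA reads, and intervals of counts would cover counting error only.

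The members, the upstream list, the markers and the named members were chosen with earlier results of these data known. Named members were those past the threshold in any contrast, the 10 highest, both arms of the families the study names, the 3 most extreme in each direction per sex without overlap, and the 3 most arm-biased precursors. Alternatives were DESeq2 1.42.0 (size factors or Wald test), other count filters, only the groups compared, limma voom, exchanged I17 libraries, only reads unique to 1 miRNA, only reads free of mismatches, other denominators and pseudocounts, each rat left out, and a replicate block. The GC correction, leaving out both I17 libraries, and the arm ratio averaged over the sexes were added after the data had been seen.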

Additional observations from a re-analysis of the deposited data

Results flagged for a closer look

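In 76 groups of 5 rats (the 13 members that passed the threshold, the sums and the 4 arm ratios), the gap of the extreme rat to its nearest neighbour was above 0.71 of the range of the group in 3. Chance gives about 1 in 20 groups, so 3 of 76 is not more than chance would give. The GH male G16M had a low miR-134-5p at 9.62 on the log2(CPM + 1) scale, with the other GH males at 9.91 to 10.01. The GH female G12F had a low miR-543-5p at 2.63, with the other GH females at 3.96 to 4.49. The SI male I17M had a log2 arm ratio of miR-543 of −15.0, with the other SI males at −9.79 to −8.64, and it had no read of the 5p arm.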

How the results depend on the processing

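With DESeq2's Wald test 11 members changed in SI males, 5 in SI females and 22 averaged over the sexes, in place of 3, 0 and 13. Beside these, 14.4% of all miRNAs were called in males and 17.9% in females. The share averaged over the sexes was not counted, so the 22 are not read as particular to the cluster. With at least 10 counts in every library these were 8 in males and 2 in females, and 2 and 1 precursors had a changed arm ratio in males and females. Only the 10 males gave 16 members (beside 18.5% of all miRNAs) and 3 arm ratios, limma voom 14 members in males (beside 17.4%), and exchanging the I17 libraries 1. For the other alternatives in this section the share of all miRNAs or precursors is not given, so their counts describe the members only. The GC correction gave 6 members in males and 6 in females and a median log2 fold change of 0.084 in females in place of −0.21. Without the 10 most counted miRNAs, the share of the cluster in SI females was 0.059 percentage points above that in GH females. With medians, the difference to the upstream cluster was −0.0104 in males and 0.089 in females.

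Without each rat in turn, 2 to 3 members changed in males, 0 to 9 in females and 8 (without G17F) to 20 (without I10F) averaged over the sexes. The female median was −0.323 to 0.004, the reversal coming without I16F. Changed arm ratios numbered 0 to 1 in males, 0 to 3 in females and 2 to 5 averaged over the sexes. Of the 13 calls averaged over the sexes, 8 held without each rat in turn and 9 without both I17 libraries.

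Animal numbers were shared by 2 pairs of males and 3 pairs of females. Their deviations correlated between −0.395 and 0.101, but so few pairs cannot tell whether a shared number marks a pairing of the rats. Over these 10 rats the replicate block gave 0 members in males, 0 in females and 0 averaged, and the same 10 rats without the block 0, 7 and 3. DESeq2's size factors, no count filter, reads of a single miRNA and reads without a mismatch moved no count of members by over 1.5 times. At these depths members under 10 CPM rest on few reads.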
